A study of Mus musculus with 18 samples.

Results

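Matricellular proteins were followed through 10 genes, Ccn1, Ccn2, Thbs1, Thbs2, Postn, Tnc, Sparc, Fn1, Cthrc1 and Tgfbi, which were listed by gene name. No threshold was set on their values, but they were chosen with earlier results of these data known. Their counts and medians are therefore not those of a set picked blind, and are given beside all genes as description only. All 10 were present on 1 row each among the 35667 genes of the count table. Bulk sequencing of Smart-seq2 cDNA measured their RNA in 18 mouse libraries, 3 for each of 6 groups. Healthy wild-type mice gave the hepatic stellate cells (HSC), liver pericytes that store retinoids. They were sampled after 7 days in Matrigel together with intrahepatic cholangiocyte organoids (ICO), after 7 days alone in Matrigel, after 7 days alone on plastic, and at day 0, directly after isolation. The ICO are bile duct epithelial organoids that carry the fluorescent dTomato tag, and they were sampled after 7 days in Matrigel together with HSC and after 7 days alone in Matrigel. The series design text states that cells from the gels were sorted. A single medium is listed for every sample, with FBS, N2, B27, gastrin, nicotinamide, N-Acetylcysteine and the growth factors HGF, EGF, FGF10 and RSPO3. The labels do not give the number of mice, the organoid line or the purity of the sort, and do not say whether replicates within a group are separate animals or cultures. The p-values below therefore measure only the spread between these libraries, which may be technical.

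Matricellular proteins are secreted into the matrix, where they bind integrins, growth factors and structural fibres and alter how cells attach and signal rather than bearing load themselves. Fibronectin is a structural adhesive glycoprotein rather than a typical matricellular protein. It is listed with them here, and it binds some of the same integrins and assembles the matrix to which many of the others attach. In liver, HSC are the main source of most of these proteins after injury, and CCN2, periostin, tenascin C and CTHRC1 are known as products of activated, matrix-forming HSC and fibroblasts. CCN1 and CCN2 are textbook targets of the YAP/TAZ coactivators, which act through TEAD factors, and several of the others are induced by TGF-beta.

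Promoter sequences are shown for 4 of the genes because they cover the directions seen in the data: Ccn1, Tnc and Postn were higher, and Tgfbi was lower, in co-cultured than in singly cultured HSC. RefSeq promoter entries (build GRCm38.p6) matched 6 of the 10 genes, at 8 start sites, namely Ccn1, Thbs2, Postn, Tnc, Sparc and Tgfbi. The counts were made on another build, so these coordinates belong to the sequences alone. Each run is the 250 bases before a start site, read 5′ to 3′ on the gene's strand, from chr3:145649986-145650235 (minus strand) for Ccn1, chr4:64046937-64047186 (minus strand) for 1 of the 2 listed Tnc starts, chr3:54360857-54361106 (plus strand) for 1 of the 2 listed Postn starts, and chr13:56609336-56609585 (plus strand) for Tgfbi. Capitals mark matches to GGAATG or its reverse complement CATTCC, the core letters bound by TEAD factors, and to TATAAA on either strand, and the Tgfbi window holds no match.
Ccn1: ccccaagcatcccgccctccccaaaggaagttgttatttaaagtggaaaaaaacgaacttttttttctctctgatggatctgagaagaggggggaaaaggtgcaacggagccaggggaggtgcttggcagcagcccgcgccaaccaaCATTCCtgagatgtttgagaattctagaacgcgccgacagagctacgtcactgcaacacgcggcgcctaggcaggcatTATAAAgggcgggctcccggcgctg
Tnc: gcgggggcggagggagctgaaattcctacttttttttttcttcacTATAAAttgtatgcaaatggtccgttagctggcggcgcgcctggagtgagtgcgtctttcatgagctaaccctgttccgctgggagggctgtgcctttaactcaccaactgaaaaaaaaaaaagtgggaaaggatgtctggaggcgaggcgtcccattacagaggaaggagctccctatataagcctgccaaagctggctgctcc
Postn: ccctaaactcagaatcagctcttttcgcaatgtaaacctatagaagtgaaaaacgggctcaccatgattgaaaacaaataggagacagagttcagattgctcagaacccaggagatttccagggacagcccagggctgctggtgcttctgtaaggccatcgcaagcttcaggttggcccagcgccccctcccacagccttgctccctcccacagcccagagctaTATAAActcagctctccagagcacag
Tgfbi: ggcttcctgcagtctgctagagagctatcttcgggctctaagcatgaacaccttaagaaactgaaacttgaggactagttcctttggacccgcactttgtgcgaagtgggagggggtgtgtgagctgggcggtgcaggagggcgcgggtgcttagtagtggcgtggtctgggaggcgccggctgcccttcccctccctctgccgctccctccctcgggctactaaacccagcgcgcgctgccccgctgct
The TEAD letters were present at -103 to -98 of the Ccn1 start, on the strand opposite to the gene, and at no other of the 8 starts searched. They occur in 12.6% of all 32851 RefSeq promoter windows of this length. TATAAA was found at -25 to -20 of Ccn1, at -26 to -21 of the Postn start shown, at -205 to -200 of the Tnc start shown (the same letters lie at -126 to -121 of the other Tnc start) and, on the opposite strand, at -126 to -121 of Thbs2. It occurs in 12.4% of all windows, and no 2 matches overlapped. Searches on both strands for the AP-1 letters TGANTCA (6.75% of windows), the CArG box of serum response factor (1.47%) and the SMAD palindrome GTCTAGAC (0.167%) found no match in the 8 windows. These matches describe letters in a window and show no binding.

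Library totals lay between 6907479 and 22158674 counts. Levels are given as CPM, a count relative to the library's total after scaling for library composition, and since CPM is not divided by transcript length it is compared only within a gene. Summed levels of 10 HSC markers were 4810.2 to 7851 CPM in co-cultured HSC, 17636 to 32943 CPM in HSC alone in Matrigel, 5502 to 10165 CPM on plastic, 58496 to 66887 CPM at day 0, and no more than 46.8 CPM in ICO. For 14 cholangiocyte markers the sums were 2194 to 6597 CPM in co-cultured HSC, 481 to 4787 CPM in HSC alone in Matrigel, no more than 134 CPM in the plastic and day 0 libraries and 15837 CPM or more in ICO. From 9 of them each library was given an organoid share, the median of a marker's level over its mean level in ICO grown the same way. It was 27.4%, 14.4% and 39.7% in co-cultured HSC replicates 1, 2 and 3, 28.4%, 12.6% and 3.87% in HSC alone in Matrigel, and 0.222% or less in the plastic and day 0 libraries. HSC alone in Matrigel thus held organoid marker transcripts although their labels name no organoids. The source of these transcripts was not tested, and the assignment of libraries to the 2 Matrigel groups rests on the labels alone. Beside the main value, the value with the share subtracted is given below where it moved a fold change of the 10 genes by over 1.5 times or changed a call. Counts that fell below 0 on subtraction were set to 0. For Ccn1, Ccn2 and Fn1 the subtraction also widened the SE, so a call could be lost while the fold change grew. Macrophage markers (10 genes) summed to 122 to 185 CPM in co-cultured HSC, 2224 to 3158 CPM in HSC alone in Matrigel, 94.1 to 444 CPM on plastic and 782 to 824 CPM at day 0. Hepatocyte markers (8 genes) reached 161 CPM at most in any cultured HSC library and 16031 to 16855 CPM at day 0. Endothelial markers (8 genes) reached 32.1 CPM at most in any cultured HSC library and 1138 to 1175 CPM at day 0. Portal fibroblast markers (5 genes) summed to 59.1 to 87.2 CPM in co-cultured HSC and 37.1 to 42 CPM in HSC alone in Matrigel. Mesothelial markers (5 genes) summed to 118 to 307 CPM in co-cultured HSC, 7.71 to 113 CPM in HSC alone in Matrigel and 549.7 to 806 CPM in ICO. In ICO alone replicate 2 only 1 of these 5, Msln, was detected, so the sum of 549.7 CPM there is the level of 1 gene that organoids express. Lymphocyte markers (5 genes) reached 4.96 CPM at most. In bulk RNA, fewer cells of a type and less RNA per cell cannot be told apart.

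**Figure D1:**
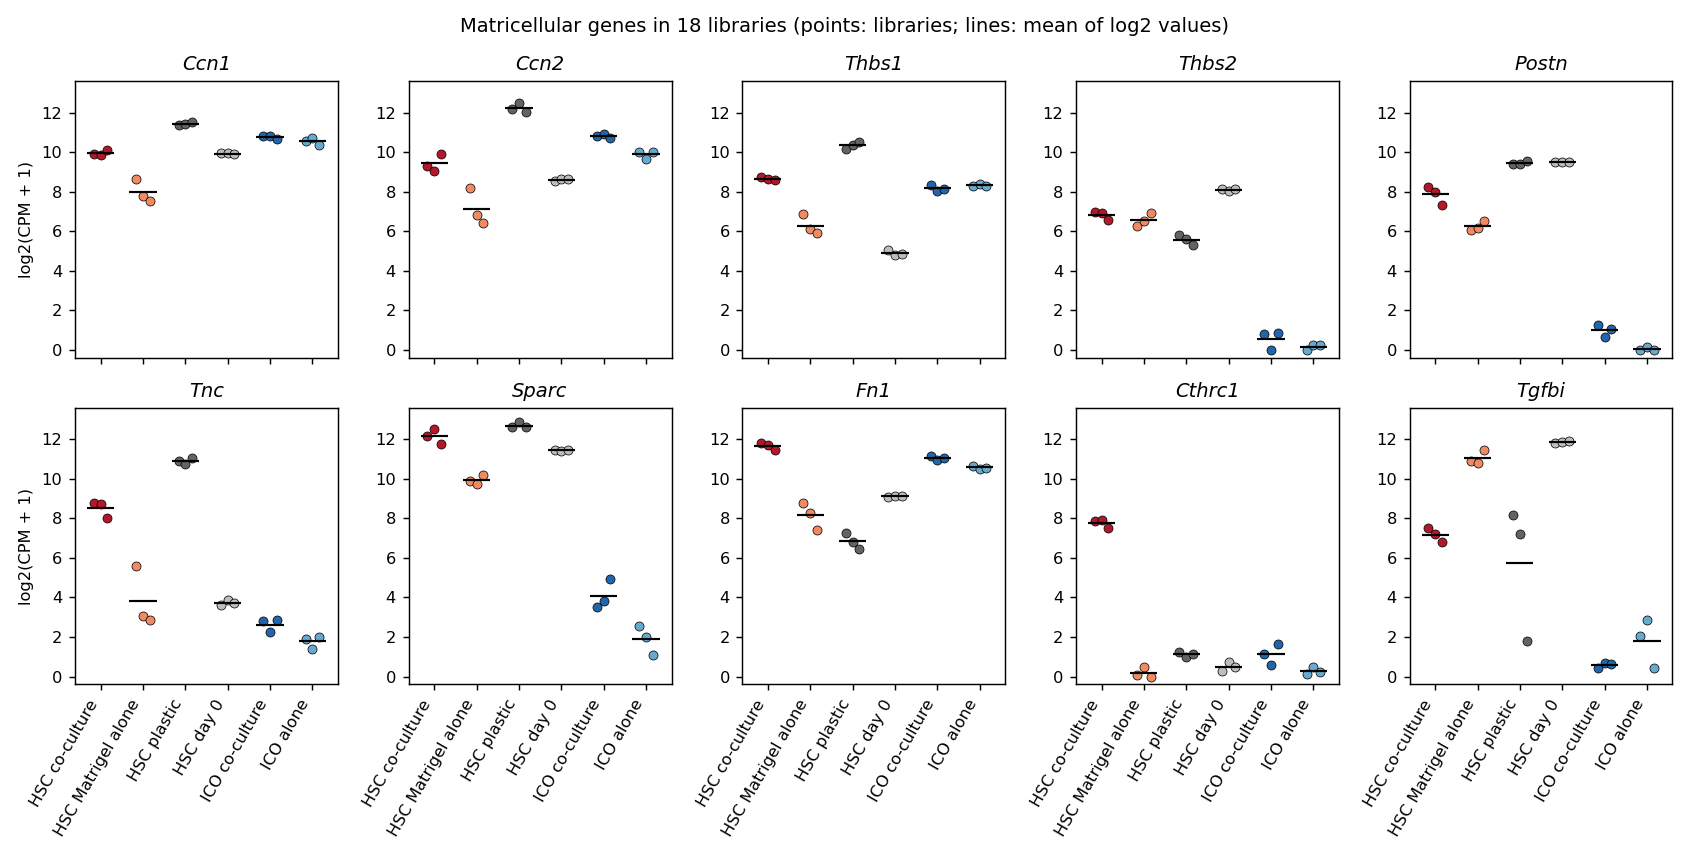
Levels of the 10 matricellular genes in the 18 libraries. The vertical axis is log2(CPM + 1), each point is 1 library and each line is the mean of the 3 log2 values of a group. Cthrc1 is near 0 everywhere but in co-cultured HSC, Thbs2 and Postn are at 1.35 CPM or less in every ICO library, and 1 of the 3 plastic libraries stands far below the others for Tgfbi.

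Co-culture with organoids was set against HSC alone in Matrigel to ask what the presence of the epithelium did to HSC in the same gel. Of the 10 genes, 8 were higher and 1 was lower in co-cultured HSC, where 31.1% of all 17020 genes tested were called in either direction, 17.3% higher and 13.8% lower. The median log2 fold change was 2.21 over the 10 genes and 0.03 over all genes tested. Fold changes are fitted log2 values with a standard error (SE), and a gene is called higher or lower where its adjusted p is under 0.05. Thbs2 was the gene not called.

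Among the CCN genes, Ccn1 (ENSMUSG00000028195) and Ccn2 (ENSMUSG00000019997) encode secreted integrin ligands, and CCN2 is also known as connective tissue growth factor. Levels of single libraries are given in the order of replicates 1, 2 and 3. Ccn1 had 973, 931 and 1102 CPM in co-cultured HSC and 391, 222 and 181 CPM in HSC alone in Matrigel. It had 2649, 2744 and 2958 CPM on plastic and 979, 986 and 957 CPM at day 0. Co-cultured HSC overlapped day 0 HSC, plastic HSC stood above both and HSC alone in Matrigel stood below. Ccn2 had 635, 525 and 974 CPM in co-cultured HSC and 287, 110.0 and 84.6 CPM in HSC alone in Matrigel. On plastic Ccn2 reached 4586, 5647 and 4131 CPM, against 376, 401 and 394 CPM at day 0. None of these 4 groups overlapped for Ccn2. The co-culture difference from Matrigel alone was 1.93 ± 0.23 for Ccn1 (log2, adjusted p = 3.53e-05) and 2.16 ± 0.40 for Ccn2 (adjusted p = 0.00163). Without Matrigel replicate 1, which had the highest Ccn2 of its group, the Ccn2 difference was 2.89.

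Both CCN genes were also expressed by organoids, and organoid RNA at the estimated shares came to 26.9% to 109% of their level in HSC libraries from Matrigel. For Ccn1 the share multiplied by the organoid level was 49%, 26.9% and 62.7% of the measured level in co-cultured HSC replicates 1, 2 and 3, and 109%, 85.4% and 32.1% in HSC alone in Matrigel. The same figures for Ccn2 were 78.3%, 49.7% and 74% in co-cultured HSC, and 94.5%, 109% and 43.7% in HSC alone in Matrigel. Where the product exceeded the measured level, it was too high and the subtraction left 0. This held for Ccn1 in Matrigel replicate 1 and for Ccn2 in Matrigel replicate 2, so the subtracted values are rough. With the share subtracted, the co-culture difference was 3.75 ± 1.24 for Ccn1 (log2, adjusted p = 0.0425) and 3.71 ± 1.15 for Ccn2 (adjusted p = 0.033). Against day 0, co-cultured HSC passed the test for neither gene, with 0.05 ± 0.22 for Ccn1 (adjusted p = 0.863) and 0.88 ± 0.38 for Ccn2 (adjusted p = 0.0737). Subtraction turned the sign of both, to -0.37 (adjusted p = 0.815) and -0.28 (adjusted p = 0.85), and with only the 6 libraries compared the Ccn2 difference passed (0.80, adjusted p = 0.00735).

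Thbs1 (ENSMUSG00000040152) encodes a thrombospondin that binds CD36 and CD47 and activates latent TGF-beta. It had 430.4, 393 and 381 CPM in co-cultured HSC and 114, 67.8 and 58.2 CPM in HSC alone in Matrigel. Plastic HSC had 1139.8, 1328 and 1456 CPM, and day 0 HSC 31.6, 27 and 27.7 CPM. The order was plastic, co-culture, Matrigel alone and day 0, with no overlap. Thbs1 was higher in co-cultured HSC than in HSC alone in Matrigel by 2.33 ± 0.22 (log2, adjusted p = 3.65e-06) and than at day 0 by 3.81 ± 0.23 (adjusted p = 1.94e-08). ICO held 260.0 to 321 CPM in co-culture and 309 to 337 CPM alone. With the organoid share subtracted the co-culture difference was 3.61 ± 0.17 (adjusted p = 2.18e-08), while the increase of HSC alone in Matrigel over day 0 was no longer called (0.42, adjusted p = 0.0579, against 1.48 ± 0.21 before).

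Thbs2 (ENSMUSG00000023885) encodes a second thrombospondin, which lacks the TGF-beta-activating sequence and restrains angiogenesis. Its levels were 125, 120.3 and 93.3 CPM in co-cultured HSC, 74.8, 90.1 and 120.5 CPM in HSC alone in Matrigel, 55.4, 47 and 38.7 CPM on plastic and 278, 263 and 283 CPM at day 0. The 2 Matrigel groups overlapped, and all cultured groups lay below day 0. The co-culture difference from Matrigel alone was 0.25 ± 0.18 (log2, adjusted p = 0.3), and 0.50 with the organoid share subtracted (adjusted p = 0.0111). Against day 0, co-cultured HSC were lower by a log2 fold change of -1.27 ± 0.18 (adjusted p = 5.19e-05). Thbs1 and Thbs2 thus differed in direction on plastic, with 5.48 ± 0.25 for Thbs1 and -2.57 ± 0.19 for Thbs2 against day 0 (adjusted p = 1.85e-09 and 1.07e-07).

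Postn (ENSMUSG00000027750) encodes periostin, a fasciclin-domain protein that aids collagen cross-linking. Its levels were 303, 254 and 161 CPM in co-cultured HSC and 64.9, 71.6 and 90.2 CPM in HSC alone in Matrigel. They were 663, 665 and 745 CPM on plastic and 721, 716 and 722 CPM at day 0. Plastic and day 0 overlapped, whereas both Matrigel groups lay below them. Co-cultured HSC were higher than HSC alone in Matrigel by 1.67 ± 0.20 (log2, adjusted p = 3.56e-05), and lower than day 0 HSC and plastic HSC by log2 fold changes of -1.58 ± 0.20 (adjusted p = 1.75e-05) and -1.50 ± 0.20 (adjusted p = 6.93e-05). The difference of plastic from day 0 was -0.08 ± 0.19 (adjusted p = 0.735). Organoids held 52 Postn counts in all in co-culture and 1 count in all alone.

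Tnc (ENSMUSG00000028364) encodes tenascin C, a hexameric glycoprotein of remodelling tissue. It had 445, 418 and 261 CPM in co-cultured HSC, against 47.6, 7.31 and 6.25 CPM in HSC alone in Matrigel. Replicate 1 of the Matrigel group was several times higher than the other 2 but still far below every co-cultured library. On plastic it had 1892, 1741 and 2127 CPM, and at day 0 it had 11.2, 13.5 and 12.2 CPM. ICO had at most 6.18 CPM in any library, so organoid RNA at the estimated shares came to at most 2.11 CPM in any HSC library. Tnc was higher in co-cultured HSC than in HSC alone in Matrigel by 4.21 ± 0.72 (log2, adjusted p = 0.00179), and by 5.80 without Matrigel replicate 1. Against day 0 it was higher by 4.93 ± 0.75 in co-culture (adjusted p = 0.000352) and by 7.26 ± 0.83 on plastic (adjusted p = 4.08e-05). HSC alone in Matrigel did not pass the test against day 0 (0.72 ± 0.66, adjusted p = 0.413), and without Matrigel replicate 1 the difference was -0.87 (adjusted p = 0.00908). Co-cultured HSC were lower than plastic HSC by a log2 fold change of -2.32 ± 0.66 (adjusted p = 0.0174), a call that was lost without co-culture replicate 3 (adjusted p = 0.0647) and with the organoid share subtracted (adjusted p = 0.0863).

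Sparc (ENSMUSG00000018593) encodes a collagen-binding, calcium-binding glycoprotein also called osteonectin. It had 4633, 5964 and 3528 CPM in co-cultured HSC and 943, 853 and 1161 CPM in HSC alone in Matrigel. Plastic HSC had 6242, 7533 and 6269 CPM, and day 0 HSC 2821, 2713 and 2835 CPM. The groups did not overlap, and HSC alone in Matrigel were the lowest of the 4. The co-culture difference was 2.26 ± 0.21 (log2, adjusted p = 3.13e-06) against Matrigel alone and 0.77 ± 0.20 against day 0 (adjusted p = 0.00492). Against plastic it was -0.47 ± 0.20 and did not pass the test (adjusted p = 0.0703). That comparison passed with RLE scaling (adjusted p = 0.0473), without the low-count filter (0.0419), with DESeq2 (0.0177) and without co-culture replicate 2 (0.0113), and turned to 0.03 with the organoid share subtracted (0.899).

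Fn1 (ENSMUSG00000026193), fibronectin, had 3556, 3431 and 2872 CPM in co-cultured HSC, against 435, 308 and 173 CPM in HSC alone in Matrigel. Its levels were 152, 111 and 86.2 CPM on plastic and 544, 563 and 564 CPM at day 0. Co-cultured HSC were highest of all groups and plastic HSC lowest, and no 2 neighbouring groups in the order of levels overlapped. The log2 fold change of co-cultured HSC was 3.44 ± 0.30 against Matrigel alone (adjusted p = 3.21e-06), 4.86 ± 0.32 against plastic (adjusted p = 3.88e-07) and 2.57 ± 0.29 against day 0 (adjusted p = 8.81e-06). Plastic HSC were lower than day 0 HSC by a log2 fold change of -2.29 ± 0.29 (adjusted p = 1.83e-05). Fibronectin is also made by hepatocytes, whose 8 markers summed to at most 98.5 CPM in co-cultured HSC, 161 CPM in HSC alone in Matrigel and 14.7 CPM on plastic, against 16031 to 16855 CPM at day 0, and their part in the differences from day 0 was not tested. Reads cannot show in gene-level counts which of the alternatively spliced fibronectin forms was made.

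Fn1 was also abundant in organoids, at 2297, 2015 and 2136 CPM in co-culture and 1617, 1465 and 1520.1 CPM alone. The organoid share multiplied by the organoid level was 589, 309 and 854 CPM in the co-cultured HSC replicates, which is 16.6%, 9.01% and 29.7% of the Fn1 measured there. The same product was 436, 193 and 59.4 CPM in HSC alone in Matrigel, or 100.4%, 62.7% and 34.4% of the measured level. With the share subtracted the co-culture difference was 5.50 ± 1.37 (log2, adjusted p = 0.0126), with Matrigel replicate 1 set to 0. After the same subtraction the call against day 0 was lost for HSC alone in Matrigel (-2.70 ± 1.21, adjusted p = 0.115, against -0.87 ± 0.28 and 0.0246 before). It was also lost for co-cultured HSC (2.79 ± 1.21, adjusted p = 0.0865, against 2.57 ± 0.29 before). Both fold changes were larger in size than before, with a wider SE.

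**Figure D2:**
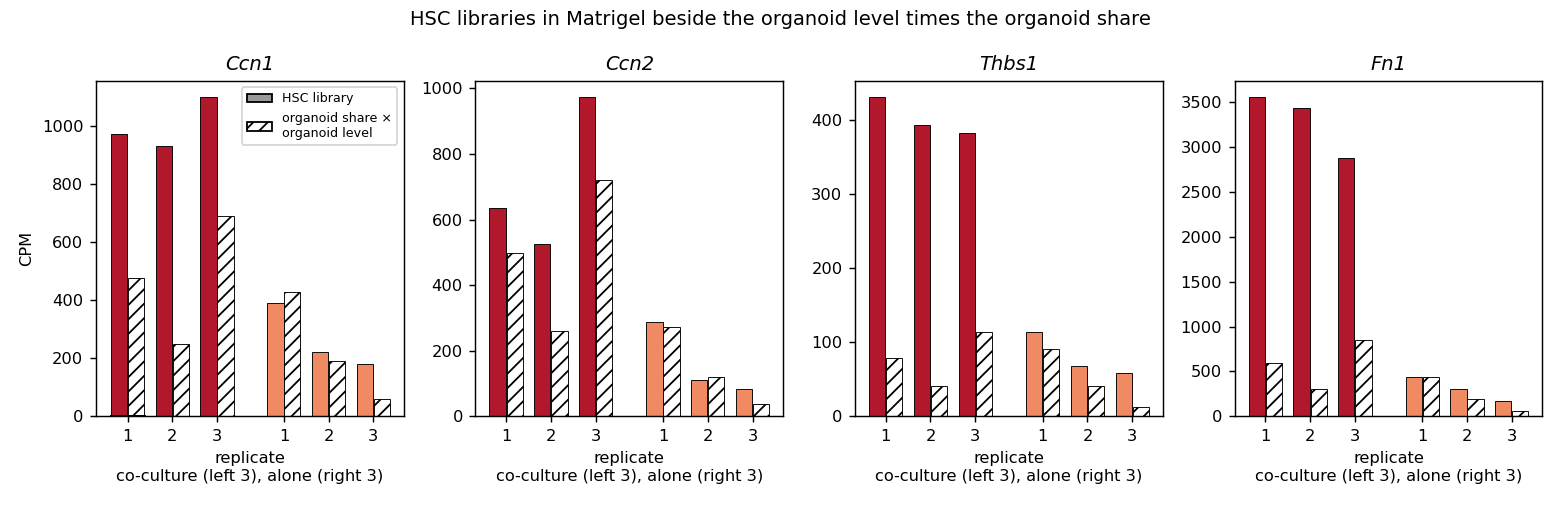
Levels of the 4 genes that organoids also express, in CPM, in the 3 co-cultured HSC libraries and the 3 HSC libraries alone in Matrigel (filled bars), beside the product of that library's organoid share and the mean ICO level in the matching culture (hatched bars). For Ccn1 and Ccn2 the hatched bars come to 26.9% to 78.3% of the level in co-cultured HSC, and for Fn1 to 9.01% to 29.7%.

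Cthrc1 (ENSMUSG00000054196) encodes a secreted collagen triple helix repeat protein made by matrix-forming fibroblasts. It had 234, 244 and 181 CPM in co-cultured HSC replicates 1, 2 and 3, against 0.0635, 0.382 and 0 CPM in HSC alone in Matrigel, which are 1, 6 and 0 counts. Every co-cultured HSC library thus stood far above every other library of the series. On plastic the gene had 1.37, 0.979 and 1.22 CPM, and at day 0 it had 0.226, 0.654 and 0.397 CPM. Its levels in ICO were 1.23, 0.507 and 2.13 CPM in co-culture and 0.0731, 0.398 and 0.172 CPM alone. All 15 libraries outside co-cultured HSC lay at or below 2.13 CPM, so the organoid share multiplied by the organoid level came to at most 0.512 CPM in any co-cultured HSC library. The fitted log2 fold change against HSC alone in Matrigel was 10.53 ± 0.43 (SE, adjusted p = 1.94e-08). It was 7.57 ± 0.34 against plastic (adjusted p = 2.05e-08) and 8.97 ± 0.39 against day 0 (adjusted p = 2.05e-09). The first of these was 12.53 without Matrigel replicate 2 and 9.90 without Matrigel replicate 3, a group that held 7 counts in all. The portal fibroblast sums given above also differed between the 2 Matrigel groups without overlap, and their part in the result was not tested.

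Tgfbi (ENSMUSG00000035493) encodes a fasciclin-domain matrix protein related to periostin and named for its induction by TGF-beta in other cells. It was the gene of the 10 that fell in co-culture. It had 182, 146 and 112 CPM in co-cultured HSC, against 1954, 1788 and 2790.1 CPM in HSC alone in Matrigel. Plastic HSC had 287, 146 and 2.53 CPM, and day 0 HSC 3669, 3737 and 3913 CPM. Co-culture and plastic overlapped at the low end, and Matrigel alone and day 0 lay well above them. The co-culture difference from Matrigel alone was -3.88 ± 1.10 (log2, adjusted p = 0.024). That call was lost without the low-count filter (adjusted p = 0.054), on leaving out co-culture replicate 1, 2 or 3 (0.0657, 0.0794 and 0.0864) and on leaving out Matrigel replicate 3 (0.0533), with the log2 fold change between -4.06 and -3.65 over all 13 alternatives. Against day 0, the log2 fold change of Tgfbi was -4.67 ± 1.14 in co-culture (adjusted p = 0.00633) and -4.72 ± 1.14 on plastic (adjusted p = 0.00538), while HSC alone in Matrigel did not pass the test (-0.79 ± 0.98, adjusted p = 0.55). With only the 6 libraries compared the last difference passed (-0.78, adjusted p = 0.00832), and those of plastic from day 0 and of Matrigel alone from plastic did not (0.0574 and 0.0724). Tests in the fit of 12 HSC libraries share 1 estimate of spread, which includes plastic replicate 3 at 2.53 CPM. Without plastic replicate 1 the difference of plastic from day 0 was -5.66.

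Tgfbi is also expressed by macrophages, whose 10 marker genes were set beside it. The macrophage sums were 122, 181 and 185 CPM in co-cultured HSC, 2224, 2343.5 and 3158 CPM in HSC alone in Matrigel, 149, 94.1 and 444 CPM on plastic and 782, 822 and 824 CPM at day 0. Co-cultured HSC were thus low, and HSC alone in Matrigel high, in both measures. The 2 measures differed in order elsewhere: day 0 had the highest Tgfbi and not the highest macrophage sums, and plastic replicate 3 had the lowest Tgfbi and the highest macrophage sum of its group. Clec4f, a marker of resident macrophages, was at 0 in all co-cultured and plastic HSC libraries and in 1 of the 3 HSC libraries alone in Matrigel. The part of macrophage RNA in the Tgfbi result was not tested.

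**Figure D3:**
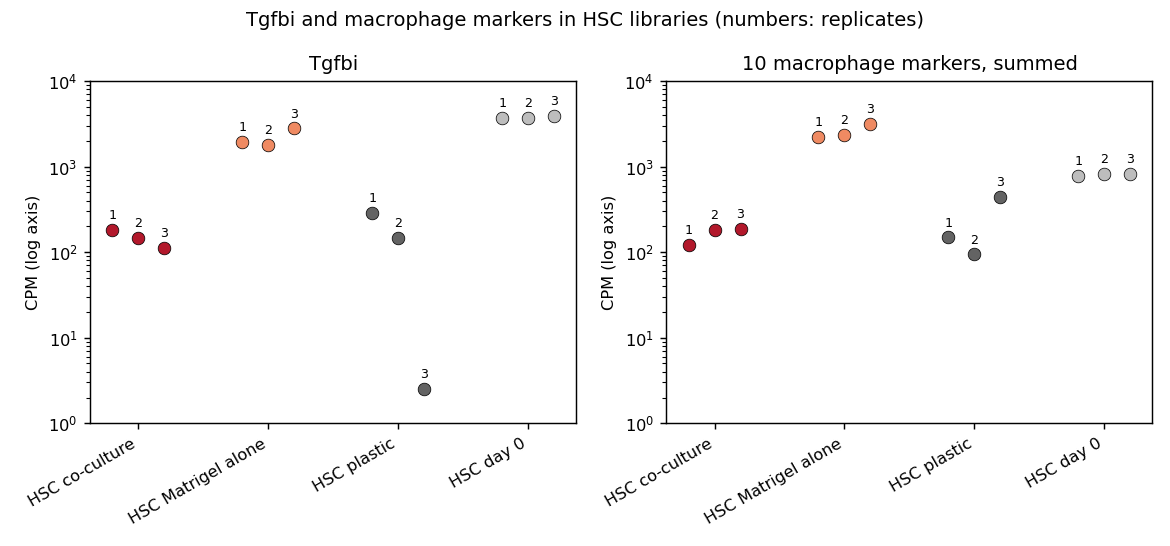
Tgfbi (left) and the sum of 10 macrophage markers (right) in the 12 HSC libraries, in CPM on a log axis, with each point 1 library labelled by its replicate number. Both are lower in co-culture (112 to 182 CPM and 122 to 185 CPM) than in Matrigel alone (1788 to 2790.1 CPM and 2224 to 3158 CPM), and plastic replicate 3 is lowest for Tgfbi at 2.53 CPM.

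Plastic was set against day 0 to follow activation in the conventional culture. Here 6 of the 10 genes were higher and 3 lower, with a median log2 fold change of 1.32 over the 10 and -0.10 over all 17020 genes tested, of which 58.0% were called in either direction (27.5% higher and 30.5% lower). The 6 higher genes were Ccn1, Ccn2, Thbs1, Tnc, Sparc and Cthrc1, the 3 lower Thbs2, Fn1 and Tgfbi, and Postn was not called. Ccn2 was higher by 3.59 ± 0.42 (log2, adjusted p = 1.62e-05), Ccn1 by 1.49 ± 0.23 (7.72e-05) and Sparc by 1.23 ± 0.20 (0.000125). The increase of Cthrc1 (1.40 ± 0.47, adjusted p = 0.0227) was one between levels of about 1 CPM and below, and its call was lost without day 0 replicate 1 or 3 (0.0996 and 0.0649) or plastic replicate 1 or 3 (0.0561 and 0.0507).

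HSC alone in Matrigel were set against day 0 and against plastic. Against day 0, 1 of the 10 genes was higher, Thbs1, and 6 were lower, with a median of -1.39 over the 10 and 0.09 over all genes, of which 40.8% were called (19.3% higher and 21.5% lower). The 6 lower genes were Ccn1 (-1.88 ± 0.23), Ccn2 (-1.28 ± 0.39), Thbs2 (-1.53 ± 0.18), Postn (-3.25 ± 0.21), Sparc (-1.50 ± 0.20) and Fn1 (-0.87 ± 0.28). The calls of Ccn2 and Fn1 did not hold in every fit that left out 1 library. Ccn2 was lost without Matrigel replicate 2 (adjusted p = 0.0798), and Fn1 without Matrigel replicate 2 or 3 (0.0639 and 0.0544) or day 0 replicate 3 (0.0595). Both were also lost with only the 6 libraries compared (0.0983 and 0.059), and Ccn2 without the low-count filter (0.0532). Cthrc1 (-1.56 ± 0.71, adjusted p = 0.0969) was called without Matrigel replicate 2 (0.00535) and with DESeq2 (0.0374), at levels under 1 CPM in both groups. With the organoid share subtracted 5 of the 10 genes were called against day 0 in place of 7, Thbs1 and Fn1 being lost as given above. Over all genes, 5682 were called in place of 6946. The differences were then -4.12 for Ccn1 (adjusted p = 0.032) and -3.99 for Ccn2 (0.0259). Without Matrigel replicate 1 the Ccn2 difference was -2.01.

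Against plastic, all 10 genes passed the test in HSC alone in Matrigel, 3 higher and 7 lower, where 55.0% of all genes were called (29.9% higher and 25.2% lower). The median was -3.06 over the 10 and 0.14 over all genes. The higher ones were Thbs2 (1.04 ± 0.18), Fn1 (1.42 ± 0.28) and Tgfbi (3.93 ± 1.10), and the lower ones included Tnc (-6.53 ± 0.80), Ccn2 (-4.87 ± 0.45), Thbs1 (-4.00 ± 0.23) and Ccn1 (-3.37 ± 0.24). With the organoid share subtracted these 4 were -6.08, -7.58, -5.07 and -5.60, so that their order changed, and the Fn1 difference turned to -0.42 (adjusted p = 0.788). Without Matrigel replicate 1 the differences were -8.13 for Tnc and -5.61 for Ccn2. Cthrc1, at -2.96 ± 0.58, was -4.96 without Matrigel replicate 2 and -2.37 without replicate 3, and Tgfbi was 4.86 without plastic replicate 1 and 3.34 without plastic replicate 3.

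Co-cultured HSC were also set against plastic and against day 0. Against plastic, 3 of the 10 genes were higher (Fn1, Cthrc1 and Thbs2) and 5 lower (Ccn1, Ccn2, Thbs1, Postn and Tnc), where 42.5% of all genes were called (22.9% higher and 19.6% lower). The median was -0.95 over the 10 and 0.08 over all genes. Ccn1 was lower by a log2 fold change of -1.44 ± 0.23 (adjusted p = 0.000255), a call lost with the organoid share subtracted (-1.86 ± 1.14, adjusted p = 0.24). Ccn2 was lower by -2.71 ± 0.41 (0.000279), or -3.87 with the share subtracted (0.0285), and Thbs1 by -1.67 ± 0.21 (4.74e-05). Thbs2 was higher by 1.30 ± 0.18 (adjusted p = 0.000105). The Tgfbi difference was 0.05 ± 0.98 (adjusted p = 0.984) and turned to -0.53 without plastic replicate 3 (0.169). Against day 0, 5 genes were higher (Thbs1, Tnc, Sparc, Fn1 and Cthrc1) and 3 lower (Thbs2, Postn and Tgfbi), where 53.7% of all genes were called (28.9% higher and 24.8% lower). The median was 0.82 over the 10 and 0.09 over all genes. These comparisons share libraries with those above and are not independent of them.

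**Figure D4:**
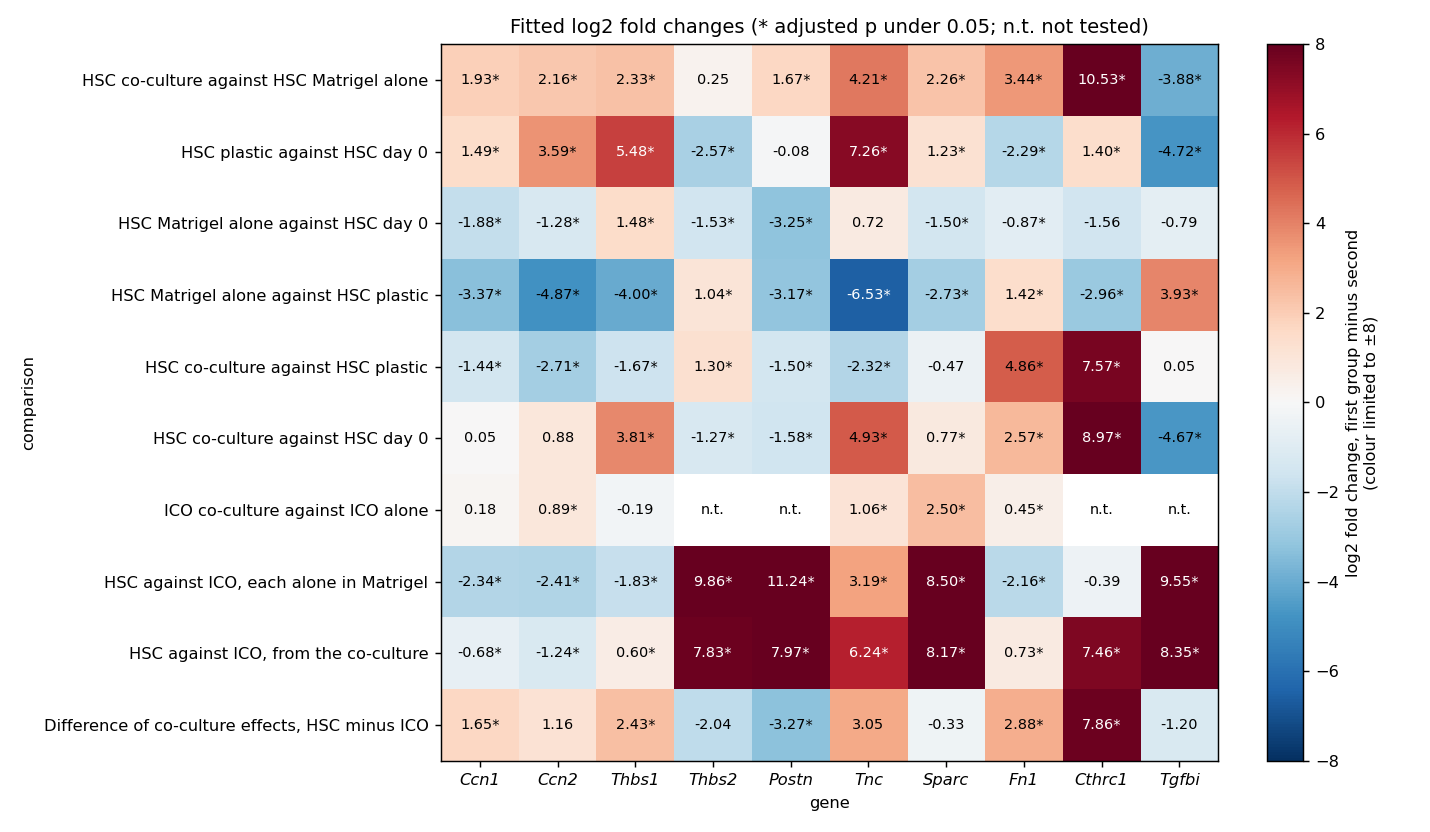
Fitted log2 fold changes of the 10 genes in the 10 comparisons, first-named group minus second, with colour limited to 8 in either direction, asterisks where the adjusted p is under 0.05 and n.t. where a gene was not tested. Against HSC alone in Matrigel, co-culture gives 8 higher genes and 1 lower, Tgfbi.

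In organoids, co-culture was set against ICO alone. Only 6 of the 10 genes had enough counts to be tested, and 4 of them were higher and 2 were not called, where 16.6% of all 13726 genes tested were called (8.59% higher and 7.96% lower). Ccn2 had 1809, 1939 and 1697 CPM in ICO from co-culture and 1032, 818 and 1015 CPM in ICO alone, without overlap (log2 fold change 0.89 ± 0.12, adjusted p = 4.5e-05). Fn1 was higher by 0.45 ± 0.11 (adjusted p = 0.0079), a call lost without ICO alone replicate 2 (0.0532). Ccn1 had 1781, 1802 and 1636 CPM in co-culture and 1493, 1683 and 1336 CPM alone, which overlapped (0.18 ± 0.11, adjusted p = 0.333). The Thbs1 difference was -0.19 ± 0.10 (adjusted p = 0.198).

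Sparc and Tnc were also higher in co-cultured ICO, at low levels. Sparc had 10.6, 13.2 and 29.3 CPM in co-culture and 4.91, 3.03 and 1.13 CPM alone (2.50 ± 0.54, adjusted p = 0.0171), and its call was lost without ICO alone replicate 2 (0.11). Tnc had 6.05, 3.69 and 6.18 CPM in co-culture and 2.78, 1.67 and 3.01 CPM alone (1.06 ± 0.34, adjusted p = 0.0363). The Tnc call was lost without ICO alone replicate 1 or 2 (0.073 and 0.132) or co-culture replicate 1 or 3 (0.136 and 0.129). Postn, not tested, had 52 counts in co-cultured ICO and 1 count in ICO alone, a ratio of 39.3 per scaled count with an exact 95% counting interval of 6.75 to 1582. HSC markers in the same libraries summed to 14.8 to 25.3 CPM in co-culture and 1.64 to 46.8 CPM alone, and their part in these low levels was not tested.

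HSC and ICO were compared within each kind of gel culture. Each alone in Matrigel, 5 of the 10 genes were higher in HSC (Thbs2, Postn, Tnc, Sparc and Tgfbi) and 4 lower (Ccn1, Ccn2, Thbs1 and Fn1), where 56.7% of 16233 genes were called (30.9% higher and 25.8% lower). Cthrc1 was near 0 in both (-0.39 ± 1.16, adjusted p = 0.789). The Sparc level was above that of ICO by 8.50 ± 0.61 (log2, adjusted p = 1.33e-06) and the Tgfbi level by 9.55 ± 0.76 (6.01e-06), while Fn1 was lower by a log2 fold change of -2.16 ± 0.26 (2.08e-05). With the organoid share subtracted from HSC, the 4 lower genes differed by -4.68 (Ccn1), -5.24 (Ccn2), -3.01 (Thbs1) and -4.10 (Fn1), against -2.34, -2.41, -1.83 and -2.16 before, and all 4 stayed called. Without Matrigel replicate 1 the Ccn2 difference was -3.17 and the Tnc difference 1.57, against 3.19 with it. Thbs2, Postn and Tgfbi were too low in ICO to be tested within ICO. They entered this fit through their HSC levels, so a call of higher in HSC was fixed in advance for them. Without ICO alone replicate 2 the Tgfbi difference was 10.41, while that of Thbs2 was 9.86, or 9.24 without ICO alone replicate 1. For Postn the ratio was 2889 with an exact 95% counting interval of 518 to 114128, since ICO alone held 1 count in all.

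From the co-culture, all 10 genes passed the test, 8 higher in HSC and 2 lower, where 39.6% of genes were called (24.0% higher and 15.6% lower). Ccn1 (-0.68 ± 0.23, adjusted p = 0.0291) and Ccn2 (-1.24 ± 0.40, adjusted p = 0.0292) were lower in HSC, and Thbs1 (0.60 ± 0.20, adjusted p = 0.03) and Fn1 (0.73 ± 0.25, adjusted p = 0.0351) were higher. These 4 calls were the weak ones. Without co-culture HSC replicate 1 or 2, or without co-culture ICO replicate 2, all 4 were lost and 6 of the 10 genes stayed called. With the organoid share subtracted, Ccn1 (adjusted p = 0.454), Ccn2 (-2.47, 0.114) and Fn1 (0.597) were no longer called. The other 6 genes were higher in HSC by 6.24 ± 0.84 (Tnc, adjusted p = 0.000373) to 8.35 ± 0.78 (Tgfbi, adjusted p = 2.74e-05). Among them, Thbs2, Postn, Cthrc1 and Tgfbi were too low to be tested within ICO. They held 27, 52, 69 and 25 counts in all in co-cultured ICO. These genes entered the fit through their HSC levels, so a call of higher in HSC was fixed in advance for them.

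The effect of co-culture was tested for a difference between the 2 cell types, as the change in HSC minus the change in ICO. This difference passed for 5 of the 10 genes, 4 positive and 1 negative, where 17.2% of genes were called (9.08% positive and 8.08% negative). Only Ccn1, Thbs1 and Fn1 of these 5 had enough counts to be tested within ICO. Fn1 differed by 2.88 ± 0.36 (log2, adjusted p = 0.000226), Thbs1 by 2.43 ± 0.28 (0.000136) and Ccn1 by 1.65 ± 0.32 (0.00388). With the organoid share subtracted the Thbs1 difference was 3.72, and the calls of Fn1 (4.96) and Ccn1 (3.50) were lost (adjusted p = 0.0916 and 0.2). The other 2 were Cthrc1, with 69 counts in co-cultured ICO and 8 in ICO alone, and Postn, with 52 counts in co-cultured ICO and 1 in ICO alone. Both entered this fit through their HSC levels, so no difference between the cell types is read from their fitted values. Ccn2 (1.16 ± 0.55, adjusted p = 0.182) and Tnc (3.05 ± 1.09, adjusted p = 0.0886) did not pass, but both did without Matrigel HSC replicate 1 (0.000795 and 3.72e-05). With the organoid share subtracted neither passed, at 2.76 ± 1.62 for Ccn2 (adjusted p = 0.265) and 3.13 ± 1.18 for Tnc (0.0936).

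Relatives of these genes were examined as a list of 19, of which 13 were tested in the HSC fit. In co-cultured HSC against Matrigel alone, 8 were higher and 4 lower, with a median log2 fold change of 1.53 against 0.03 over all genes, of which 17.3% were higher and 13.8% lower. The rule for naming took Ccn4, a CCN gene induced by Wnt signalling, which had 69.1 ± 17.9 CPM in co-cultured HSC and 4.76 ± 1.45 CPM in HSC alone in Matrigel (SD, n = 3 each), and Fstl1, a SPARC-related glycoprotein, which had 1503 ± 268 and 149.7 ± 28.8 CPM. Their log2 fold changes were 3.87 ± 0.24 (SE, adjusted p = 1.21e-07) and 3.34 ± 0.18 (4.67e-08). Smoc2, another SPARC-related gene, moved the other way, with 11.2 ± 1.1 CPM in co-cultured HSC and 323 ± 97.7 CPM in HSC alone in Matrigel (-4.85 ± 0.60, adjusted p = 0.00021), as did the tenascin gene Tnxb (-1.99 ± 0.34, adjusted p = 0.000701).

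Across the other HSC comparisons the relatives were mixed. On plastic against day 0, where 58.0% of all genes were called, 4 of the 13 were higher and 6 lower, among them Fstl1 (2.29 ± 0.17) and Spp1 (3.55 ± 0.43) higher and Sparcl1 (-7.09 ± 0.34) lower. Vtn, the hepatocyte-derived adhesive protein vitronectin, had no count on plastic and 361 CPM at day 0, which with 3 counts over the group as floor is at least 6194-fold lower, in libraries whose hepatocyte sums differed as given above. HSC alone in Matrigel had 1 relative higher than day 0, Spp1 (6.33 ± 0.49), and 6 lower (40.8% of all genes called). The lower ones included Vtn (-7.20 ± 0.41) and Ccn4 (-3.28 ± 0.23). Against plastic they had 5 higher and 4 lower (55.0% called). Sparcl1 (5.17 ± 0.31) and Smoc2 (4.75 ± 0.59) were higher in Matrigel than on plastic, and Fstl1 (-3.54 ± 0.18) and Ccn4 (-2.90 ± 0.23) were lower. Co-cultured HSC had 9 higher and 1 lower than plastic (42.5% called), with Sparcl1 (6.14 ± 0.32) and Spp1 (4.31 ± 0.44) among the higher. Against day 0 they had 5 higher, among them Spp1 (7.86 ± 0.52) and Fstl1 (2.09 ± 0.17), and 6 lower, among them Vtn (-10.3 ± 0.52) and Smoc2 (-4.81 ± 0.60), where 53.7% were called. Spp1 had 5139 CPM in co-culture, 1794 CPM in Matrigel alone, 266 CPM on plastic and 22.3 CPM at day 0. ICO alone held 9244.5 CPM, and the part of organoid RNA in the Spp1 differences was not tested. In ICO, where 16.6% of all genes were called, 1 of 7 tested relatives was called, Fstl1, which was lower in co-culture by a log2 fold change of -1.22 ± 0.15 (adjusted p = 2.56e-05).

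Receptors of the matricellular proteins were counted in a list of 16, all tested. In co-cultured HSC against Matrigel alone 5 were higher and 6 lower, where 17.3% of all genes were higher and 13.8% lower, with a median of 0.29 against 0.03 over all genes. Itga5, the alpha chain of the classical fibronectin receptor, had 445 ± 123 CPM in co-cultured HSC and 31.4 ± 7.87 CPM in HSC alone in Matrigel (3.83 ± 0.24, adjusted p = 1.91e-07), and 392.7 ± 40.7 CPM on plastic against 39.2 ± 7.41 CPM at day 0 (3.30 ± 0.24, adjusted p = 1.15e-07). Sdc1, a syndecan, was higher in co-cultured HSC by 2.52 ± 0.69 (adjusted p = 0.0214). It had 823 ± 62.6 CPM in co-cultured ICO and 804 CPM in ICO alone, against 87.8 CPM in HSC alone in Matrigel. The part of organoid RNA in the Sdc1 difference was not tested. Cd36, a thrombospondin receptor, had 0.344 ± 0.319 CPM in co-cultured HSC and 52.8 ± 25 CPM in HSC alone in Matrigel (-6.98 ± 0.80, adjusted p = 0.000126). Macrophage sums differed the same way between these 2 groups, and their part in the Cd36 difference was not tested. Stab1, a scavenger receptor that binds SPARC and is made by macrophages and sinusoidal endothelium, was lower by a log2 fold change of -3.23 ± 0.32 (adjusted p = 8.92e-06), where macrophage sums also differed. Itga4, the alpha chain of a fibronectin-binding integrin, was higher on plastic than at day 0 by 4.78 ± 0.20 (adjusted p = 1.22e-09), in a comparison with 5 receptors higher and 8 lower (58.0% of all genes called). HSC alone in Matrigel had 3 receptors higher and 6 lower than day 0 (40.8% called), and 7 higher and 6 lower than plastic (55.0% called). Co-cultured HSC had 5 higher and 6 lower than plastic (42.5% called), and 4 higher and 9 lower than day 0 (53.7% called). In ICO from co-culture 4 of 12 tested receptors were higher, where 8.59% of all genes were, among them Lrp1 (1.19 ± 0.18), a scavenger receptor for thrombospondins and CCN2.

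Upstream regulators were counted in a list of 17, covering TGF-beta ligands, receptors and SMADs and the YAP/TAZ, TEAD and serum response factor genes. In co-cultured HSC against Matrigel alone 9 were higher and the other 8 were not called, where 17.3% of all genes were higher and 13.8% lower, with a median of 0.53 against 0.03 over all genes. Tgfb3 had 154 ± 24.9 CPM in co-cultured HSC and 19.1 ± 18.1 CPM in HSC alone in Matrigel (3.03 ± 0.54, adjusted p = 0.0021), and Tgfb2 had 48.5 ± 6.13 CPM and 7.35 ± 6.14 CPM (2.74 ± 0.50, adjusted p = 0.0019). ICO expressed both, Tgfb3 at 113 ± 6.37 CPM and Tgfb2 at 29.6 ± 1.71 CPM in co-culture, and Tgfb3 at 104 CPM in ICO alone. The part of organoid RNA in these HSC levels was not tested. On plastic against day 0, where 58.0% of all genes were called, 6 of the 17 were higher, among them Tgfb3 (4.41 ± 0.57) and Tgfb2 (3.86 ± 0.53), and 4 lower, among them Smad3 (-0.82 ± 0.13) and Tgfbr2 (-0.72 ± 0.15). In HSC alone in Matrigel against day 0, edgeR called 0 of the 17 and 40.8% of all genes, with 3 at an unadjusted p under 0.05, and DESeq2 called 1. In ICO the share called, 3 of 17, was near the 16.6% of all genes: 1 was higher, Smad4 (0.48 ± 0.15), and 2 were lower in co-culture, Tgfbr2 (-0.58 ± 0.09) and Tead2 (-0.40 ± 0.13). In the difference of co-culture effects between HSC and ICO, where 17.2% of all genes were called, 5 upstream regulators were positive, among them Tgfb3 (2.85 ± 0.74), and 1 was negative, Yap1 (-0.87 ± 0.27).

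The genes whose levels most resembled each of the 10 were taken by Pearson correlation of log2(CPM + 1) over the 18 libraries, which share cell types and groups, so that r describes the pattern across groups and carries no test. Tnc was most like Acta2 (r = 0.991), Actg2 (0.983) and Tpm2 (0.977), all of them actin or tropomyosin genes of contractile cells. Postn was most like Pcdh18 (0.996), Itga9 (0.992) and Adgra2 (0.989), Sparc like Fbn1 (0.991), Lhfp (0.990) and Cplx2 (0.988), and Thbs2 like Plod1 (0.996), Lrat (0.996) and G0s2 (0.994). Tgfbi resembled Gdf10 (0.988), Apoe (0.984) and Slco2b1 (0.983). Ccn1 was nearest to Rab1a (0.975), Samd4 (0.953) and Tmed2 (0.953), Ccn2 to Adipor1 (0.975), Nipsnap3b (0.969) and Kif5b (0.967), Thbs1 to Ripk3 (0.987), Zmat3 (0.984) and Banf1 (0.982), and Fn1 to Enpp1 (0.962), Ddah2 (0.952) and Dennd2d (0.949). Cthrc1 was nearest to Defa29 (0.987), Tmem200a (0.986) and Tnfsf8 (0.978), and reads of Defa29 may have been divided among near-identical defensin genes. Within the 10, Postn and Sparc were the most alike (r = 0.975), followed by Ccn1 and Ccn2 (0.945), Thbs2 and Postn (0.939) and Thbs2 and Sparc (0.925), while Thbs1 and Thbs2 had an r of -0.38. These values include the ICO libraries, where Postn reached 1.35 CPM and Sparc 29.3 CPM at most. In co-cultured HSC, Sparc and Postn were both higher than in Matrigel alone (2.26 and 1.67). Against day 0 they went opposite ways (0.77 and -1.58).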

How the data were processed

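The authors deposited estimated counts per gene, which may hold fractions of a read. Smart-seq2 libraries were made, per the labels' protocols. Tools in the submitters' processing notes are DESeq2 (1.36.0) and kallisto (0.46.1), with GRCm39 as the build and without roles; which annotation was used is not given here. Rounded estimated counts were tested in R 4.3.3 by the quasi-likelihood test of edgeR 4.0.16 with robust dispersion, TMM factors and filterByExpr, and p-values were adjusted by Benjamini-Hochberg over all genes tested. HSC groups shared 1 fit of 12 libraries, ICO groups had a fit of 6, and comparisons across cell types a fit of the 12 Matrigel libraries. CPM used TMM factors over all 18 libraries. SE values are the log2 fold change over the root of its F statistic. Counting intervals (Clopper-Pearson) and the floor of 3 counts cover counting error only. Replicates of a group differed by more than sampling noise. Share markers had at least 100 CPM in both ICO groups and less than 5 CPM in each library from plastic or day 0. The 10 genes and all lists were chosen with earlier results of these data known. All 10 are named. From the lists of relatives, receptors and regulators, names come from the 2 largest called changes per direction and comparison with a mean of 10 CPM or more in the higher group. Tests were also run on simulated counts with known changes, without organoid RNA or an outlying library, so that run says nothing about these 2 features. Alternatives were RLE scaling, no filter, a filter of 10 CPM in 3 libraries, DESeq2 1.42.0, a replicate block, only the 6 libraries compared, subtraction of the organoid share, and leaving out each library.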

Additional observations from a re-analysis of the deposited data

Results flagged for a closer look

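The effect of co-culture differed between HSC and ICO for 3 genes that could be tested in both cell types, by the interaction test in edgeR over the 12 Matrigel libraries. The differences on the log2 scale were 1.65 for Ccn1 (adjusted p = 0.00388), 2.43 for Thbs1 (0.000136) and 2.88 for Fn1 (0.000226). With the organoid share subtracted, Thbs1 stayed called. The calls of Ccn1 (3.50 ± 1.77, adjusted p = 0.2) and Fn1 (4.96 ± 1.85, 0.0916) were lost. The same test also gave -3.27 for Postn (adjusted p = 0.0413) and 7.86 for Cthrc1 (0.00737), but with 1 and 8 counts in ICO alone both genes were too low to be tested within ICO, and no difference is read from these values. The Postn call was lost in 8 of 18 alternatives, and the Cthrc1 call without ICO alone replicate 2 (0.0818). Groups of 3 libraries were too small for a test of single outlying libraries.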

How the results depend on the processing

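Of 1254 values of single genes under an alternative, 1157 kept their direction and their side of the threshold, 66 lost the call, 13 gained one and 18 changed sign. Values with a changed sign mostly belonged to differences near 0 that were not called, and their cause was not tested. The Ccn1 difference of co-cultured HSC from day 0 HSC was -0.0143 with DESeq2, -0.0143 with RLE scaling, -0.0094 without the low-count filter, -0.0215 with only the 6 libraries compared and -0.37 with the organoid share subtracted. Subtraction gave -0.28 for Ccn2 in the same comparison, 0.0283 for Sparc in co-cultured against plastic HSC and -0.42 for Fn1 in HSC alone in Matrigel against plastic. Leaving out 1 library at a time gave ranges of -0.0268 to 0.0975 for Ccn1 in co-culture against day 0, -0.87 to 1.155 for Tnc in Matrigel alone against day 0, -0.53 to 0.98 for Tgfbi in co-culture against plastic, -2.42 to 0.37 for Cthrc1 in HSC against ICO alone, and -0.86 to 0.25 for the Sparc difference of co-culture effects.

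Genes called between co-cultured HSC and HSC alone in Matrigel numbered 3453 with only their 6 libraries in the fit and 5290 with all 12. Without the filter 7 of the 10 genes were called in ICO in place of 4. That is more than the 6 with enough counts to be tested with it, so it includes a gene too low for that filter. Over all genes, the settings that kept all libraries called 2050 to 2604 in ICO. With the organoid share subtracted 3 of the 10 genes were called in place of 5 for the difference of co-culture effects. There 3519 of all genes were called in place of 2785. Leaving out 1 library gave 1427 to 1948 genes called in ICO, against 2272 with all. For HSC against ICO from co-culture it gave 6 to 10 of the 10 genes called, and 4662 to 6668 of all genes.

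Replicate numbers were not taken as pairs, since same-numbered libraries of 2 groups correlated in their deviations by -0.361 to 0.091. Co-cultured HSC and co-cultured ICO carry the same code with each number, though the labels do not say that a code is a shared gel. Their correlations were 0.051, 0.054 and -0.034. With the block all 10 genes stayed called between them, where 5799 of all genes were called in place of 6436. With the replicate number as a block, 3 of the 10 genes were called in ICO, where Sparc was lost (2.41, adjusted p = 0.135). Over all genes, 2050 were called there in place of 2272. For the difference of co-culture effects 4 of the 10 were called, where Postn was lost (-3.31, adjusted p = 0.0643), and 2311 of all genes in place of 2785. Depth limits Cthrc1, Postn and Thbs2 in ICO and Cthrc1 in HSC alone in Matrigel, where groups hold few counts.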
